A study of Mus musculus with 6 samples.

Results

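The genes described here are 36 enzymes, carriers and regulators of mitochondrial fatty acid oxidation and of the tricarboxylic acid (TCA) cycle. They were taken by symbol from a list of pathway genes, by a rule that uses no measured value, and 36 of the 32090 genes of the count table matched. The list was chosen with earlier results of these data known. Of the 36, 34 passed a filter on low counts together with 12557 genes in all, and the exceptions were Cpt1b and Ppara. The RNA came from regulatory T (Treg) cells, the CD4 lineage defined by the transcription factor Foxp3, sorted as live CD45+ CD4+ Foxp3+ cells from the lamina propria of the colon of untreated C57/BL6 mice. The 3 WT libraries came from Foxp3YFP-Cre mice, in which Cre recombinase and a yellow fluorescent protein are made wherever Foxp3 is active. The 3 KO libraries came from Il23r fl/fl Foxp3YFP-Cre mice, which carry that Cre as well as a floxed interleukin-23 receptor gene, so that deletion is limited to cells that have made Foxp3. Both groups carry the Cre allele, each library is a pool of 5 or more mice, and the labels give neither age nor sex. The p-values below measure the spread between these pools.

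Fatty acids are taken up or released from stores, activated to acyl-CoA by acyl-CoA synthetases, and passed into mitochondria as carnitine esters. Inside, a repeated cycle of dehydrogenation, hydration, a further dehydrogenation and thiolysis cuts the chain into acetyl-CoA, and the flavoprotein ETF carries the electrons of the first step to the respiratory chain. Citrate synthase admits the acetyl-CoA to the TCA cycle, which oxidises it and supplies reduced cofactors and biosynthetic precursors. Treg cells are known for leaning on oxidative metabolism more than conventional effector T cells do, and colonic Treg cells live beside epithelial cells and macrophages that themselves oxidise fatty acids.

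Several properties of the libraries bear on every value below. Total estimated counts ran from 9680503 in WT2 to 20654340 in KO1, and the RNA integrity number was 5 in WT2 and between 7.9 and 8.8 in the others. Il23r itself was at 19.4, 38.3 and 13.6 CPM (counts scaled to a fixed library total, after TMM) in the WT libraries, given here and below in the order of their numbers, against 18.4, 4.99 and 8.96 CPM in the KO libraries. The KO1 value lies inside the WT range, so that this library is called the library labelled KO1 from here on. Il23r had a log2 fold change of KO over WT of -1.14 (SE 0.59), which was not called (edgeR, adjusted p = 0.573), and a count over the whole gene does not show whether the floxed part was lost. Xist, made from the inactive X chromosome of female cells, had 6 counts over WT and 116560 over KO, while Y-linked Ddx3y was at 113, 232 and 115 CPM in WT, against 58.0, 0.122 and 27.0 CPM in KO. The KO libraries thus held female RNA that the WT libraries lacked, and sex and genotype cannot be told apart for any gene here. KO2 and KO3 were much closer to each other (Pearson r = 0.974 over log2 CPM across genes, which are not independent replicates) than any other pair, for which r lay between 0.832 and 0.912. Their counts differed by more than counting error, with a chi-square per degree of freedom of 14.7, which in amplified libraries does not show that they are separate samples. They were kept as 2 samples, as labelled, and summing them is given as an alternative. WT1 and the library labelled KO1 share a sort batch, and the other batches hold 1 group each.

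No member was called different between WT and KO. Of the 34 tested, 0 were called higher and 0 lower at an adjusted p under 0.05 (edgeR's quasi-likelihood test with Benjamini-Hochberg adjustment over all genes). Of all 12557 genes 3 were called, 0.0239%, with 0.0159% higher in KO and 0.00796% lower. DESeq2 also called 0 members, where it called 1.89% of the genes to which it gave an adjusted p, and the authors' deposited table called 0 members, where it called 2.41% of its rows. At an unadjusted p under 0.05, edgeR had 3 members, 8.82% of those tested, against 9.37% of all genes (5.02% higher in KO and 4.35% lower). These 3 were Ppard, Eci2 and Fabp5, all higher in KO. Fold changes were positive in 14 members and negative in 20, with a median log2 fold change of -0.06, beside -0.04 over all tested genes. The median over the 23 fatty acid oxidation members was -0.01 and that over the 11 TCA cycle members was -0.09. Within the shared sort batch the median difference of the library labelled KO1 minus WT1 was 0.09 over the members and 0.01 over all tested genes.

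Although no member was called, the libraries of the groups did not overlap in 9 members. Fabp5, Acsl1, Ppard, Echs1, Eci2 and Mdh1 were higher in all 3 KO libraries, 17.6% of the tested members, where 9.68% of all tested genes were. Acsl5, Hadh and Idh3b were lower in all 3 KO libraries, 8.82% of the tested members, where 8.01% of all tested genes were. In either direction the share was 26.5% of the members and 17.7% of all genes. With KO2 and KO3 summed into 1 library it was 10 of 34 members and 20.6% of all genes.

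**Figure D1:**
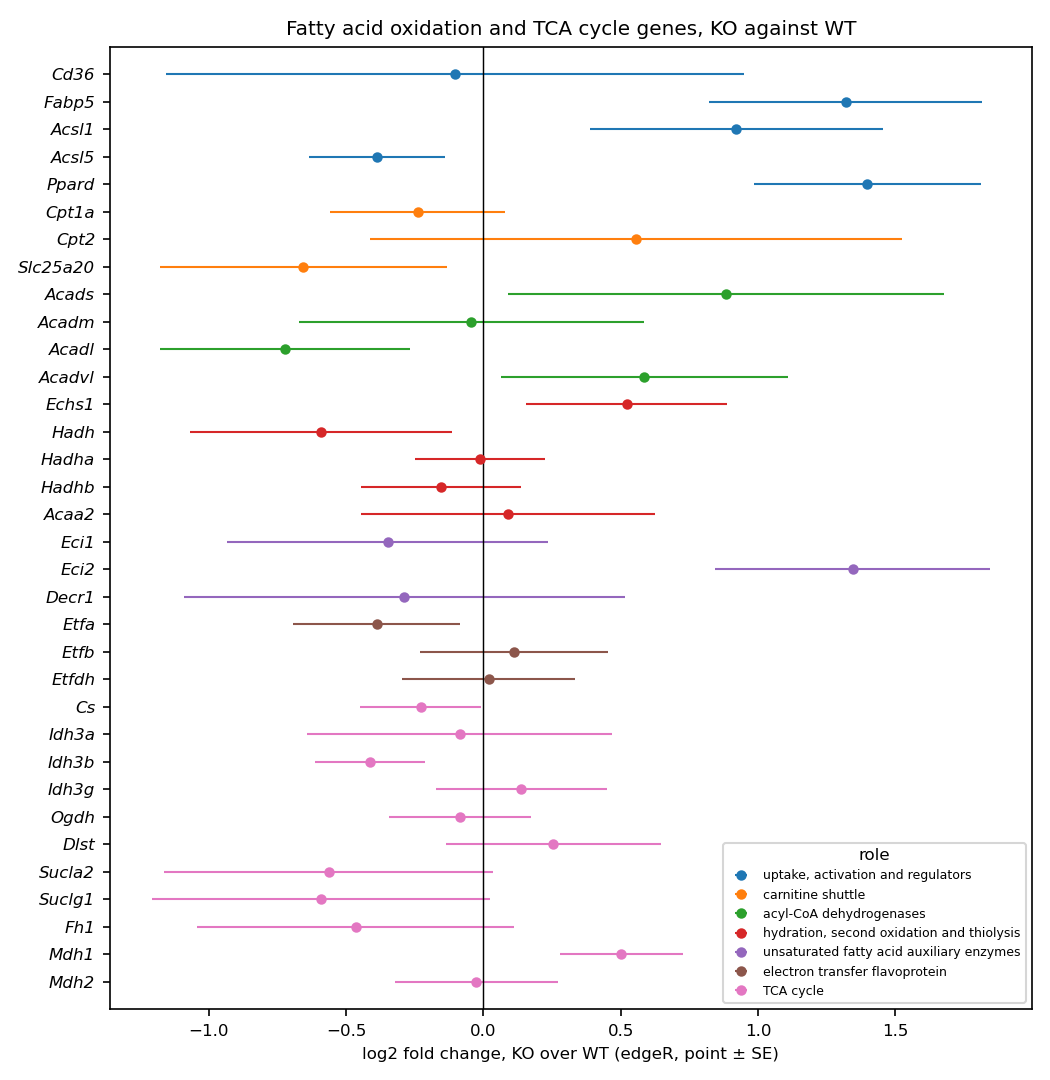
Log2 fold change of KO over WT with its standard error (horizontal axis, edgeR) for the 34 tested members (vertical axis), coloured by role. Ppard, Eci2 and Fabp5 lie farthest to the right at 1.40, 1.34 and 1.32, and Acadl lies farthest to the left at -0.72.

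Levels of different members were ranked only after division by transcript length, as CPM per kilobase of the longest coding transcript in GENCODE M21. On this scale the WT cells held most of the mitochondrial malate dehydrogenase Mdh2, at 81.9 ± 33.0 CPM per kilobase (SD, n = 3), followed by Idh3b at 69.4 ± 6.85 and citrate synthase (Cs) at 40.2 ± 8.27. The first 6 places all belonged to TCA cycle genes, though Ogdh at place 6 overlapped Hadhb at place 7. Other TCA cycle genes were far lower, with Suclg1, Idh3a, Fh1 and Sucla2 at places 20, 24, 25 and 26. The most abundant members of fatty acid oxidation per length were Hadhb at 29.1 ± 10.04, Etfb at 24.4 ± 4.29, Etfa at 23.7 ± 4.40 and Acadvl at 22.4 ± 16.3 CPM per kilobase. At the low end were Decr1 at 1.02 ± 0.476, Cpt2 at 0.886 ± 0.935 and Cd36 at 0.544 ± 0.633 CPM per kilobase. Neighbours in this order mostly could not be ranked, since the WT library ranges overlapped in 32 of the 33 neighbouring pairs. The exception was Idh3b, whose lowest WT library lay above the highest of Cs. In KO, Mdh2 was again first, at 80.5 ± 11.8 CPM per kilobase, and 6 neighbouring pairs were apart. Fabp5 stood at place 22 in WT and at place 12 in KO, Ppard at 28 and 15, and Eci2 at 27 and 16.

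**Figure D2:**
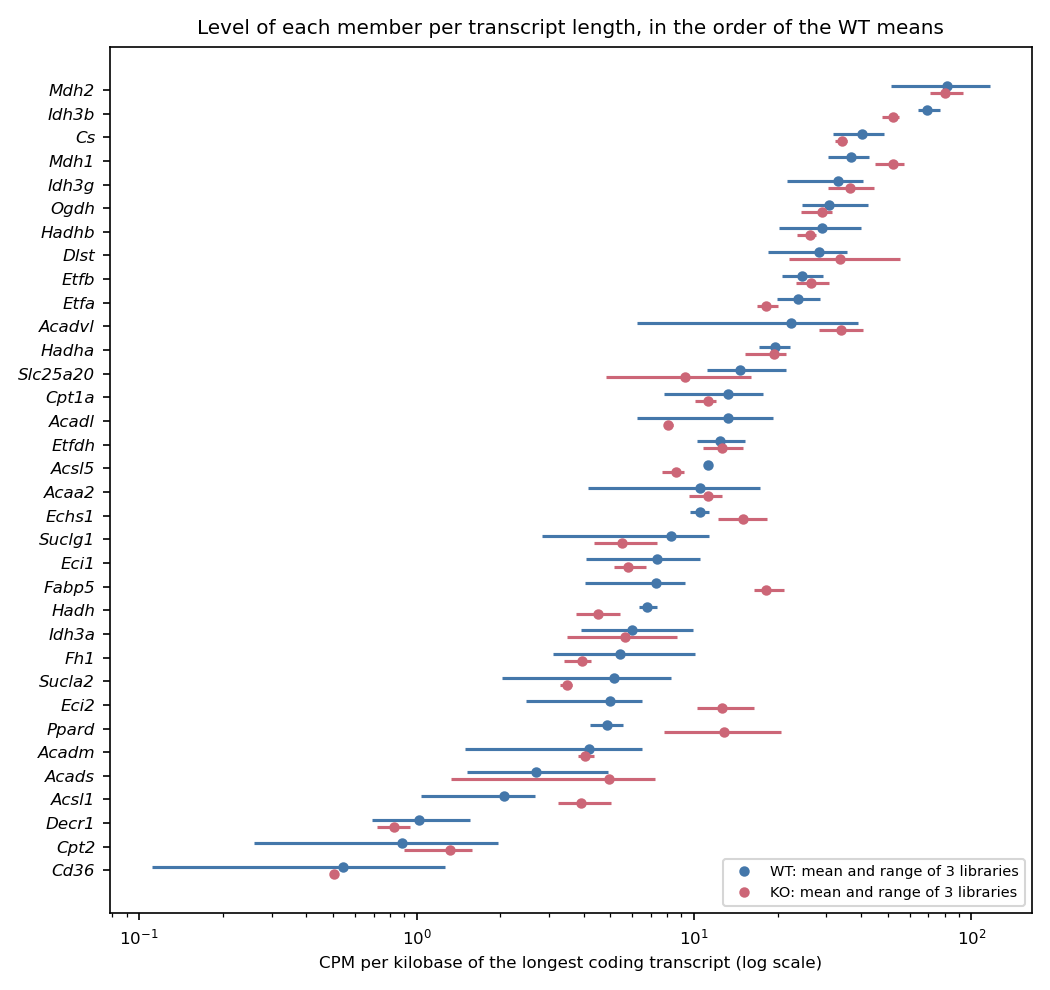
Level of each tested member in CPM per kilobase of transcript (horizontal axis, log scale), with genes in the order of their WT means (vertical axis); points are means and lines the range of 3 libraries, blue for WT and red for KO. TCA cycle genes take the first 6 WT places, led by Mdh2 at 81.9 CPM per kilobase, and the KO ranges of Fabp5, Eci2 and Ppard lie to the right of their WT ranges.

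Promoter windows of 300 bases (250 before to 50 after the start) were taken from RefSeq, GRCm38.p6. The windows of Ppard and Eci2, the members with the smallest p among those higher in KO, and of Idh3b, the member with the smallest p among those lower in KO, are shown 5′ to 3′ on the strand of each gene, with CCAAT boxes (CCAAT) and GC boxes (GGGCGG), on either strand, in capitals. They lie at chr17:28232504-28232803 (plus strand), chr13:34994095-34994394 (minus strand) and chr2:130284402-130284701 (minus strand).
Ppard: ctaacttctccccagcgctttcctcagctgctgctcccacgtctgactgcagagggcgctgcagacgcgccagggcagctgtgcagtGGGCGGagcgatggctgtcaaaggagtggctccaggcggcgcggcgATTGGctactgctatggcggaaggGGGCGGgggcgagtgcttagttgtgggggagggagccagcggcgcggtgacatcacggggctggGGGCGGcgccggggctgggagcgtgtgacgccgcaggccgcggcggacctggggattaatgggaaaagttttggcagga
Eci2: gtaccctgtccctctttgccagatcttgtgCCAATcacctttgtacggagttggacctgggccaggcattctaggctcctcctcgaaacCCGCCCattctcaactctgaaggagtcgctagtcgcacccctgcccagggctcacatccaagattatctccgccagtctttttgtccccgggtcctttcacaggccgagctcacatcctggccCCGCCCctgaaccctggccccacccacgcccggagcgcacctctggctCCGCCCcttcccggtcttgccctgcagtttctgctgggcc
Idh3b: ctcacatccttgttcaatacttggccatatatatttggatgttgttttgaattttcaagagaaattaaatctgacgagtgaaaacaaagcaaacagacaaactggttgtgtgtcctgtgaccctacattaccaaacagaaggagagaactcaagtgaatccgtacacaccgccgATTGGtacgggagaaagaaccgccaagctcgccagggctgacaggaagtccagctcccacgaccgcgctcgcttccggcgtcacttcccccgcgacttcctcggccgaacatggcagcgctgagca
Ppard and Eci2 each hold 3 GC boxes and 1 CCAAT box, and Idh3b holds 1 CCAAT box and no GC box. A GC box was found in 24 of 31 member windows and in 66.4% of tested genes. Of the other members lower in all KO libraries, Hadh has a GC box and Acsl5 has none. Of the other members higher in all KO libraries, Acsl1, Echs1 and Mdh1 have a GC box and Fabp5 has no window. A link between the boxes and the direction of change was not tested.

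Among the 5 tested genes of fatty acid uptake, activation and regulation, 4 had groups that did not overlap (Fabp5, Acsl1, Ppard and Acsl5). Of these, 3 were higher and 1 lower in KO, and none was called. Over all tested genes 17.7% did not overlap, and a share over 5 genes says little beside it. The carnitine shuttle, the acyl-CoA dehydrogenases and the electron transfer flavoprotein each had 0. Ppard (Entrez 19015) encodes PPAR-delta, a nuclear receptor that binds fatty acids and induces oxidation genes. Ppard stood at 18.1, 16.0 and 13.8 CPM in WT and 67.6, 25.5 and 33.1 CPM in KO. All KO libraries lay above all WT libraries, and the library labelled KO1 lay far above the other two. The group levels were 16.0 ± 2.16 and 42.1 ± 22.4 CPM (SD, n = 3 each). This log2 fold change, 1.40 (SE 0.41), was not called (edgeR, adjusted p = 0.435; DESeq2, adjusted p = 0.0578). Leaving out the library labelled KO1 took the log2 fold change of Ppard to 0.87, while within the shared sort batch it was 1.89.

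Fabp5 (Entrez 16592), a cytosolic carrier that delivers fatty acids to PPAR-delta and to oxidation, was at 9.15, 4.01 and 8.40 CPM in the WT libraries and at 20.8, 16.3 and 16.7 CPM in the KO libraries. WT2 was lowest, and the lowest KO library was still above the highest WT library. Its means of 7.18 ± 2.78 and 18.0 ± 2.503 CPM (SD, n = 3 each) gave a log2 fold change of 1.32 (SE 0.50) without a call (edgeR, adjusted p = 0.488). RefSeq lists a pseudogene, Fabp5l2, that could share reads with Fabp5. Within the shared sort batch the difference in Fabp5 was 1.18 on the log2 scale.

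The acyl-CoA synthetases Acsl1 and Acsl5, which activate long-chain fatty acids, ran in opposite directions. Acsl1 (Entrez 14081) was at 9.71, 10.4 and 4.03 CPM in WT and 12.6, 19.5 and 13.4 CPM in KO, a log2 fold change of 0.92 (SE 0.53) (edgeR, adjusted p = 0.607). Acsl5 (Entrez 433256), the more abundant of these synthetases per transcript length, was at 49.0, 46.5 and 47.7 CPM in WT and 38.9, 32.5 and 38.1 CPM in KO. The WT libraries of Acsl5 lay within a narrow band and all KO libraries lay below it, with a log2 fold change of -0.39 (SE 0.25) (edgeR, adjusted p = 0.641). In the shared sort batch the differences were 0.38 for Acsl1 and -0.33 for Acsl5. Neither synthetase was called.

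Cd36 (Entrez 12491), a membrane receptor that takes up long-chain fatty acids, was scarce. It was at 0.377, 4.32 and 0.851 CPM in WT and at 1.74, 1.70 and 1.69 CPM in KO, so that the WT libraries spread widely around closely spaced KO libraries. Cd36 had a log2 fold change of -0.10 (SE 1.05) (edgeR, adjusted p = 0.984), which became 1.44 without WT2. Ppara (Entrez 19013), the nuclear receptor that drives fatty acid oxidation in liver, was barely detected, with 1 count in WT1 and 0 counts in the other 5 libraries. A count of 0 in a library allows up to 3 counts, so that Ppara was near or below what this depth can detect.

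**Figure D3:**
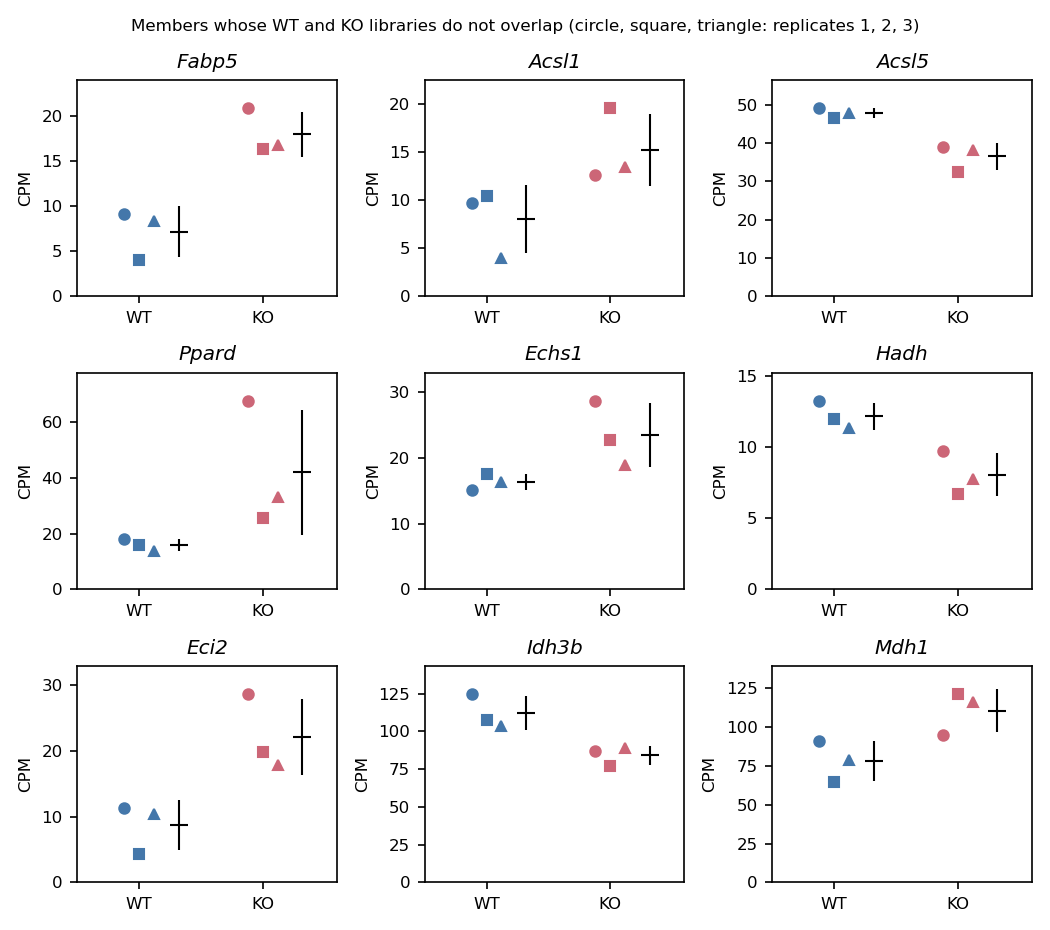
CPM (vertical axis, from 0) in each WT (blue) and KO (red) library of the 9 members whose groups do not overlap; the black bar is the mean with its SD over 3 libraries. Ppard reaches 67.6 CPM in the library labelled KO1 and at most 18.1 CPM in WT, and the 3 members lower in KO are Acsl5, Hadh and Idh3b.

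Markers of other cell types differed between the same libraries. In bulk RNA, fewer cells of a type and less RNA per cell cannot be told apart. Of 18 macrophage and monocyte markers, 17 were tested and all 17 had positive log2 fold changes. EdgeR called 0 of them, with 8 at an unadjusted p under 0.05, and DESeq2 called 1, Fcgr3 (adjusted p = 0.039). Over all tested genes 47.4% had positive log2 fold changes and 9.37% an unadjusted edgeR p under 0.05. EdgeR called 0.0239% of all genes, and DESeq2 called 1.89% of those to which it gave an adjusted p. The summed level of the macrophage and monocyte markers was 327 to 625 CPM in WT and 627 to 1379 CPM in KO, highest in the library labelled KO1. None of these markers was at 0 in either group, and Apoe had the highest CPM, 262 over all libraries, on a scale not divided by length. Epithelial markers summed to 26.4 to 55.9 CPM in WT and 75.1 to 167 CPM in KO, with Clca1 highest at 20.4 CPM and Cdx2 at 0 in all libraries. Of the 13 epithelial markers tested, 10 had positive and 3 negative log2 fold changes. The negative ones were Epcam (-0.89), Cdh1 (-1.36) and Chga (-0.15), none of them called, so that the epithelial markers did not move together. EdgeR called Fcgbp higher in KO (adjusted p = 0.0169) and DESeq2 called 3 higher, Fcgbp, Zg16 and Clca1. Endothelial and stromal markers summed to 54.5 to 99.9 CPM in WT and 46.2 to 62.8 CPM in KO, with Pecam1 highest at 49.3 CPM, Kdr and Plvap at 0 throughout and Cdh5, Esam and Pdgfrb at 0 in WT. B and plasma cell markers summed to 177 to 757 CPM in WT and 246 to 324 CPM in KO, led by Jchain at 402 CPM, with Tnfrsf17 at 0 in WT. Treg and T cell markers, led by Ctla4 at 2736 CPM, summed to 8161 to 8962 CPM in WT and 8095 to 8856 CPM in KO, and none of the 10 was at 0 in either group. Ppard, Fabp5 and Eci2 were highest in the library labelled KO1, as was the summed macrophage level, while Acsl1 was highest in KO2 and Cd36 in WT2. The library labelled KO1 was the highest KO library in 17 of the 34 tested members. The same share over all genes was not counted, so that this number is not a trait of the members. The part of these other cell types in the differences of Ppard, Fabp5, Acsl1, Cd36 and Eci2 was not tested.

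Entry into mitochondria runs through the carnitine shuttle. Cpt1a (Entrez 12894), the outer-membrane carnitine palmitoyltransferase that controls the rate of entry, was at 61.6, 33.7 and 76.7 CPM in WT and 43.6, 51.8 and 50.5 CPM in KO. All 3 KO values lay within the WT range, and the log2 fold change of -0.24 (SE 0.32) was not called (edgeR, adjusted p = 0.848). Its muscle isoform Cpt1b (Entrez 12895) had 0 counts in all WT libraries, 0 counts in the library labelled KO1 and in KO2, and 10 counts in KO3. Cpt1c, the isoform known from brain and named here after its values were seen, had between 1 and 17 counts in each library.

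The inner-membrane transferase Cpt2 (Entrez 12896), which turns the carnitine ester back into acyl-CoA, was low and uneven. It was at 1.04, 0.617 and 4.65 CPM in WT, from 6 counts in WT2 to 82 counts in WT3, and at 3.47, 2.13 and 3.76 CPM in KO. With this spread its log2 fold change of 0.56 (SE 0.97) was not called (edgeR, adjusted p = 0.893), and it was 0.11 without WT2 and 1.91 without WT3. Slc25a20 (Entrez 57279), the translocase that exchanges acylcarnitine for carnitine, was at 19.8, 19.9 and 38.3 CPM in WT and 28.6, 8.58 and 12.4 CPM in KO. KO2 and KO3 lay below all WT libraries and the library labelled KO1 lay among them, with a log2 fold change of -0.66 (SE 0.52) (edgeR, adjusted p = 0.718) that was -1.32 without the library labelled KO1 and -0.26 without WT3.

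The acyl-CoA dehydrogenases catalyse the first step of each turn and differ in the chain length they accept. Acadvl (Entrez 11370), for very long chains, was at 48.1, 13.5 and 84.3 CPM in WT and 88.0, 70.4 and 61.2 CPM in KO. WT2, the library of RNA integrity 5, was far below the rest, and the log2 fold change of 0.59 (SE 0.52) (edgeR, adjusted p = 0.750) became 0.13 without it. Acadl (Entrez 11363), for long chains, was at 36.8, 11.9 and 27.5 CPM in WT and 15.1, 16.1 and 15.05 CPM in KO. WT2 was again the lowest WT library, and the KO values lay close together between WT2 and the other two, with a log2 fold change of -0.72 (SE 0.46) (edgeR, adjusted p = 0.636).

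Acadm (Entrez 11364), the medium-chain enzyme, was at 13.3, 9.35 and 3.06 CPM in WT and 8.95, 8.09 and 7.84 CPM in KO. Its KO libraries fell inside the WT range and the log2 fold change was -0.04 (SE 0.63) (edgeR, adjusted p = 0.989). Acads, the short-chain enzyme, was at 9.15, 3.08 and 2.84 CPM in WT and 2.49, 13.5 and 11.8 CPM in KO, with KO2 and KO3 above all WT libraries and the library labelled KO1 below them. None of the 4 dehydrogenases was called, and in none were the groups apart.

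The later steps of the cycle are carried by the trifunctional protein for long chains and by single enzymes for shorter ones. Hadha (Entrez 97212), its subunit with hydratase and dehydrogenase activity, was at 88.8, 78.1 and 68.8 CPM in WT and 61.5, 85.7 and 86.4 CPM in KO, with a log2 fold change of -0.01 (SE 0.24) (edgeR, adjusted p = 0.991). The sign of that value depends on the scaling, since upper-quartile scaling gave 0.027. Hadhb (Entrez 231086), the thiolase subunit, was at 55.1, 81.9 and 41.5 CPM in WT and 48.1, 56.3 and 56.0 CPM in KO, with a log2 fold change of -0.15 (SE 0.29) (edgeR, adjusted p = 0.903). WT2 was the highest library for Hadhb, and without it the value was 0.14. A pseudogene named Hadhb-ps is listed in RefSeq and could share its reads.

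Hadha and Hadhb lie head to head, and RefSeq places their starts 273 bases apart on chromosome 5 of GRCm38.p6, so that the promoter windows of both genes (250 bases before to 50 after each start) share 228 bases. The shared stretch, chr5:30155003-30155230, is shown on the Hadhb (plus) strand because both subunits are read outward from it, with the single GC box (GGGCGG) in capitals.
Hadhb and Hadha: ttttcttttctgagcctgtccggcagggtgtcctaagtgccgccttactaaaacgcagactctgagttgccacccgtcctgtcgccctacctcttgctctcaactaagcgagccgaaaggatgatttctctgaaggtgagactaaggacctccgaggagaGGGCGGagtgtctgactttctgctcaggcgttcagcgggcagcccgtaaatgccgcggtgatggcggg
Neither a CCAAT box nor a nuclear receptor half-site (AGGTCA) was found in these letters. Within libraries, log2 CPM of Hadhb minus that of Hadha was -0.69, 0.07 and -0.73 in WT and -0.36, -0.61 and -0.62 in KO. Per transcript length the levels in WT were 29.1 ± 10.04 for Hadhb and 19.6 ± 2.501 CPM per kilobase for Hadha (SD, n = 3). The log2 differences overlapped between groups (mean difference between groups -0.08, exact two-sided permutation p = 1).

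The single enzymes Echs1 and Hadh, named here after their values were seen because their groups were apart, ran in opposite directions. Echs1 (Entrez 93747), the enoyl-CoA hydratase, was at 15.1, 17.6 and 16.3 CPM in WT and 28.6, 22.8 and 19.0 CPM in KO, a log2 fold change of 0.52 (SE 0.37) (edgeR, adjusted p = 0.676). Hadh (Entrez 15107), the 3-hydroxyacyl-CoA dehydrogenase for medium and short chains, was at 13.2, 11.9 and 11.3 CPM in WT and 9.71, 6.69 and 7.77 CPM in KO, a log2 fold change of -0.59 (SE 0.48) (edgeR, adjusted p = 0.720). Neither was called. They were the only 2 of the 5 tested genes of these steps with groups apart, 1 higher and 1 lower in KO. Over all tested genes 9.68% were higher without overlap and 8.01% lower. Echs1 overlaps the coding gene Paox, whose reads could be assigned to either. The thiolase Acaa2, which releases acetyl-CoA, ranged from 6.27 to 26.3 CPM in WT and from 14.5 to 19.1 CPM in KO.

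Unsaturated fatty acids need auxiliary enzymes that move or remove double bonds. Eci2 (Entrez 23986), an enoyl-CoA isomerase of mitochondria and peroxisomes, was at 11.3, 4.32 and 10.4 CPM in WT and 28.6, 19.8 and 17.9 CPM in KO. Every KO library lay above every WT library, with WT2 the lowest and the library labelled KO1 the highest. The means of 8.69 ± 3.81 and 22.1 ± 5.73 CPM (SD, n = 3 each) gave a log2 fold change of 1.34 (SE 0.50), not called in edgeR (adjusted p = 0.487), and the authors' deposited table gave 1.21 with an adjusted p of 0.0782, its lowest among the members. In the shared sort batch the Eci2 difference was 1.33, and without WT2 the fold change was 1.01. The lncRNA Gm16984 and the pseudogene Gm46408 overlap Eci2 in RefSeq, and reads of overlapping genes cannot be told apart where the strand of the libraries is not given. This limit also holds for other members. Among them, Ppard, Acsl1 and Acsl5 overlap genes not listed as coding, and Dlst, Etfb and Etfdh overlap the coding genes Prox2, Cldnd2 and Ppid. The mitochondrial isomerase Eci1 was between 4.62 and 11.9 CPM in WT and between 5.84 and 7.66 CPM in KO, and the dienoyl-CoA reductase Decr1 between 2.04 and 4.63 CPM and between 2.13 and 2.81 CPM.

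The electron transfer flavoprotein is a pair of subunits, Etfa and Etfb, that hands electrons to the membrane enzyme Etfdh and so to ubiquinone. Etfa (Entrez 110842) was at 39.7, 27.6 and 31.8 CPM in WT and 23.5, 28.0 and 24.2 CPM in KO. The library labelled KO1 and KO3 lay below all WT libraries and KO2 lay just above WT2, with a log2 fold change of -0.39 (SE 0.30) (edgeR, adjusted p = 0.713). Etfdh (Entrez 66841) was at 36.2, 27.9 and 24.5 CPM in WT and 35.8, 25.6 and 28.3 CPM in KO, a log2 fold change of 0.02 (SE 0.32) (edgeR, adjusted p = 0.990). Etfb lay between 18.6 and 26.0 CPM in WT and between 20.9 and 27.3 CPM in KO. The 3 electron transfer genes varied little within either group, with a median SD of 0.26 in WT and 0.20 in KO on the log2 CPM scale.

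Of the 11 TCA cycle members 0 were called, and in 9 of them the groups overlapped. The groups were apart in 18.2% of them, near the 17.7% of all tested genes. Cs (Entrez 12974), which joins acetyl-CoA to oxaloacetate, was at 141, 92.9 and 119 CPM in WT and 94.2, 104 and 103 CPM in KO, a log2 fold change of -0.23 (SE 0.22) (edgeR, adjusted p = 0.771). The KO values lay within the WT range. Ogdh (Entrez 18293), the first component of the 2-oxoglutarate dehydrogenase complex, was at 101, 104 and 174 CPM in WT and 101, 127 and 130.1 CPM in KO, with a log2 fold change of -0.09 (SE 0.26) (edgeR, adjusted p = 0.939). Its partner Dlst, the second component, was at 85.0, 98.3 and 51.2 CPM in WT and 153, 60.7 and 66.0 CPM in KO. The library labelled KO1 held the highest Dlst level of all, and without it the log2 fold change of 0.25 became -0.31.

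The NAD-dependent isocitrate dehydrogenase has a catalytic subunit, Idh3a, and the further subunits Idh3b and Idh3g. Idh3b (Entrez 170718) was at 125, 108 and 104 CPM in WT and 86.7, 76.9 and 89.0 CPM in KO, a log2 fold change of -0.41 (SE 0.20) (edgeR, adjusted p = 0.554). Its KO libraries all lay below its WT libraries, and the shared sort batch gave -0.52. The catalytic subunit Idh3a (Entrez 67834) was at 10.1, 10.5 and 25.6 CPM in WT and 22.4, 9.005 and 12.1 CPM in KO, with 1 high library in each group and a log2 fold change of -0.09 (SE 0.55) (edgeR, adjusted p = 0.973). Idh3g, on the X chromosome, was at 54.1, 28.9 and 49.4 CPM in WT and 59.5, 40.6 and 45.6 CPM in KO. Per transcript length the subunits were far from equal in WT, at 69.4 ± 6.85 for Idh3b, 33.2 ± 10.1 for Idh3g and 5.96 ± 3.42 CPM per kilobase for Idh3a (SD, n = 3), and no library range of one overlapped that of another. The span of Idh3b overlaps the coding gene Nop56 in RefSeq, so that some reads could belong to either.

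Both malate dehydrogenases were measured, Mdh2 in the mitochondrion as the last enzyme of the cycle and Mdh1 in the cytosol as its partner in the malate-aspartate shuttle. Mdh1 (Entrez 17449) was at 91.0, 64.8 and 78.5 CPM in WT and 94.9, 121 and 116 CPM in KO. KO2 and KO3 were clearly above the WT libraries and the library labelled KO1 was just above WT1, by 0.06 on the log2 scale. The means of 78.1 ± 13.1 and 111 ± 13.8 CPM (SD, n = 3 each) gave a log2 fold change of 0.50 (SE 0.22), which was not called (edgeR, adjusted p = 0.535). Mdh2 (Entrez 17448) was at 113, 74.6 and 170.0 CPM in WT and 103, 112 and 136 CPM in KO, with a log2 fold change of -0.03 (SE 0.30) (edgeR, adjusted p = 0.986) whose sign turned under upper-quartile scaling (0.0075). The remaining cycle genes had negative and uncalled log2 fold changes, -0.56 for Sucla2, the ADP-specific subunit of succinyl-CoA synthetase, -0.59 for Suclg1, its shared subunit, and -0.47 for fumarase (Fh1). In each of these 3 genes the KO libraries overlapped a wide WT range, from 3.23-fold to 4.07-fold between the lowest and highest WT library.

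Ratios between partners within a library do not depend on the scaling between libraries, and 9 were compared. None differed between groups by an exact two-sided permutation test, in which 3 libraries against 3 cannot give a p below 0.1. The lowest p was 0.2 (0.6 after Benjamini-Hochberg adjustment over the 9 exact tests), for Etfb minus Etfa, Mdh2 minus Mdh1 and Cpt2 minus Cpt1a. Etfb minus Etfa was -0.93, -0.57 and -0.29 in WT and -0.06, -0.42 and 0.17 in KO on the log2 CPM scale, a mean difference of 0.49. Mdh2 minus Mdh1 was 0.31, 0.20 and 1.11 in WT and 0.12, -0.11 and 0.24 in KO, a mean difference of -0.46. Cpt2 minus Cpt1a was -5.73, -5.50 and -4.01 in WT and -3.60, -4.52 and -3.70 in KO, a mean difference of 1.14. In all 3 the groups overlapped. The mean differences of the other ratios were -0.36 for Idh3b minus Idh3a, 0.22 for Idh3g minus Idh3a, 0.22 for Dlst minus Ogdh, -0.05 for Suclg1 minus Sucla2 and -0.75 for Acadm minus Acadvl, with exact p from 0.5 to 1.

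**Figure D4:**
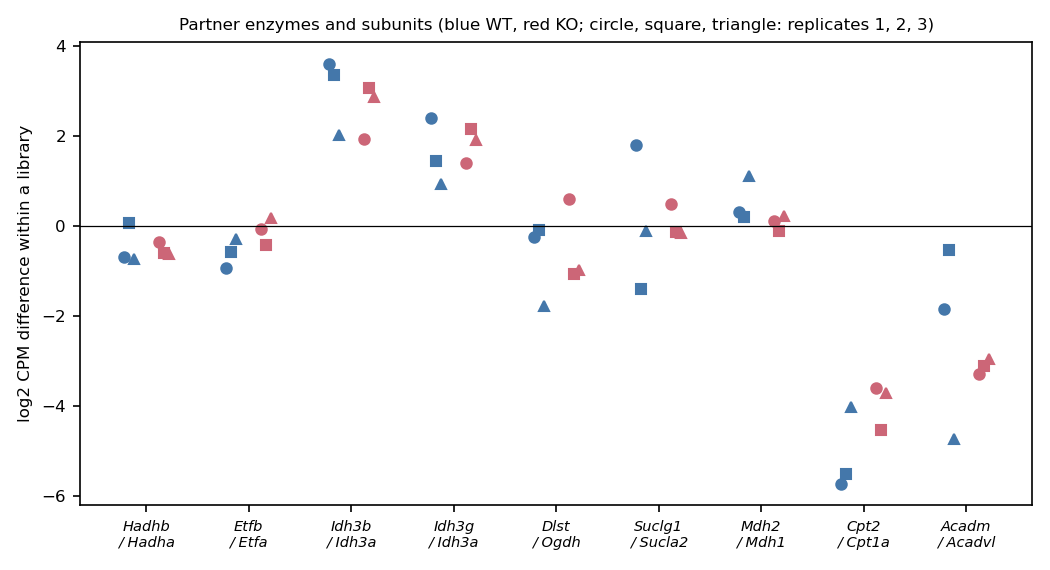
Difference in log2 CPM between partner enzymes or subunits within each library (vertical axis) for 9 pairs (horizontal axis), WT in blue and KO in red, with 1 symbol per replicate number. WT and KO symbols overlap in every pair, and the WT libraries span from -4.72 to -0.52 for Acadm and Acadvl while the KO libraries lie between -3.28 and -2.95.

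The members varied more among WT libraries than among KO libraries, as genes in general did. The SD of log2 CPM was larger in WT in 26 of the 34 tested members, 76.5%, and in 74.4% of all tested genes. The median SD was 0.60 in WT and 0.20 in KO over the members, beside 0.63 and 0.34 over all tested genes. KO2 and KO3, the close pair, make up most of the KO group, and the part of their closeness in the small KO spread was not tested. WT2 was the lowest WT library in 15 members, and WT3 was the highest in 12, without a like count over all genes. In 3 members, Cd36, Cpt2 and Acadvl, the highest WT library was over 5-fold the lowest, and in KO this held for 1 member, Acads.

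**Figure D5:**
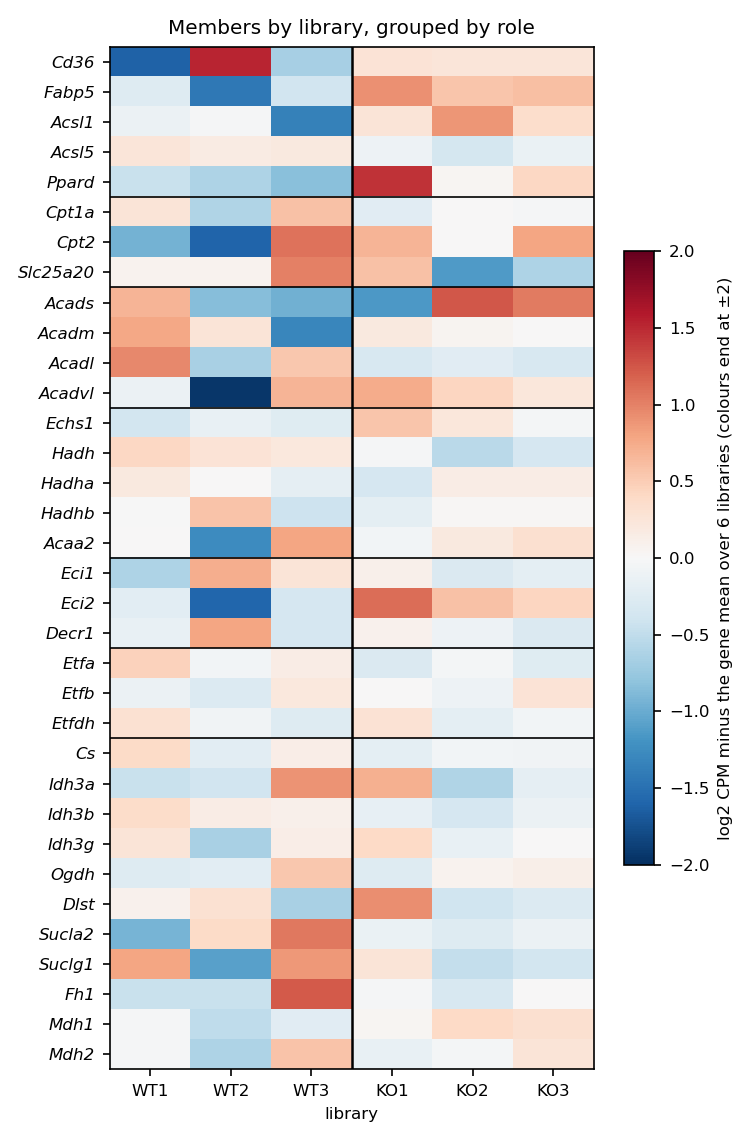
Log2 CPM of each tested member minus its mean over the 6 libraries (colour, ending at 2 in either direction), with members grouped by role from uptake at the top to the TCA cycle at the bottom and libraries in columns. Strong colours are more common in the 3 WT columns than in KO2 and KO3, and Ppard and Eci2 are highest in the column of the library labelled KO1.

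Further genes of the same pathways were listed by pathway and not by their values, though with earlier results of these data known. These genes gave a like picture. Of 29 tested genes among 38 further fatty acid oxidation genes in the table, 0 were called and 15 had positive log2 fold changes, with a median of 0.01. The 3 with the smallest p were Acad8, a dehydrogenase of valine breakdown, Mcee, the methylmalonyl-CoA epimerase, and Acacb, the acetyl-CoA carboxylase whose product malonyl-CoA inhibits Cpt1a. Acad8 was at 10.7, 3.91 and 2.78 CPM in WT and 16.9, 30.1 and 22.2 CPM in KO, a log2 fold change of 2.00 (SE 0.60) that edgeR did not call (adjusted p = 0.436) and DESeq2 did (adjusted p = 0.039). Mcee was at 0.660, 0.822 and 0.794 and 3.07, 4.56 and 3.20 CPM (edgeR, adjusted p = 0.492). Acacb was at 1.51, 1.95 and 0.0567 and 10.4, 7.12 and 4.89 CPM (edgeR, adjusted p = 0.505). In all 3 the KO libraries lay above the WT libraries, which a choice by smallest p favours. Over the 29 tested genes, 6 were higher and 1 lower in KO without overlap, 24.1%, beside 17.7% of all tested genes.

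Of 24 tested genes among 27 further TCA cycle and entry genes, 0 were called and 10 were positive, with a median of -0.11. Sdhc, a membrane anchor of succinate dehydrogenase, was at 19.7, 11.2 and 6.24 CPM in WT and 21.1, 41.8 and 34.1 CPM in KO, a log2 fold change of 1.39 (SE 0.49) (edgeR, adjusted p = 0.487). Pdha1, the X-linked first subunit of pyruvate dehydrogenase, was at 64.7, 90.1 and 60.5 and 42.8, 47.9 and 45.5 CPM, a log2 fold change of -0.66 (SE 0.25) (edgeR, adjusted p = 0.488). Sdhc and Pdha1 ran in opposite directions with no overlap between groups. Over this list the groups were apart in 4 genes, 16.7% of those tested, beside 17.7% of all tested genes. Sdhb, the iron-sulphur subunit of succinate dehydrogenase, was at 19.9, 16.8 and 7.89 and 19.7, 30.8 and 35.4 CPM (edgeR, adjusted p = 0.548), with the library labelled KO1 inside the WT range.

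Of 16 tested genes among 21 PPAR, PGC1 and energy-sensing regulators, 0 were called and 8 were positive, with a median of 0.03. Tfam, the packaging and transcription factor of mitochondrial DNA, was at 11.6, 8.02 and 9.98 CPM in WT and 17.2, 28.9 and 22.9 CPM in KO, a log2 fold change of 1.22 (SE 0.42) with no overlap between groups (edgeR, adjusted p = 0.487). Prkag1, a subunit of the AMP-activated kinase, was at 23.2, 30.5 and 25.7 and 26.6, 47.8 and 43.8 CPM (edgeR, adjusted p = 0.601), and Rxrb, a dimer partner of the PPARs, at 22.9, 6.48 and 24.5 and 19.3, 37.6 and 36.9 CPM (edgeR, adjusted p = 0.651). In both of these the groups overlapped. Tfam was the 1 gene of this list without overlap, 6.25% of those tested, beside 17.7% of all tested genes.

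Promoter windows like those shown for Ppard, Eci2 and Idh3b were at hand for 31 of the 36 members. Over the members the GC box was found in 24 of 31 windows, 77.4%, against 66.4% of tested genes and 38.2% of all genes with a window. The CCAAT box was in 15 members, 48.4%, against 43.1% of tested genes and 41.1% of all genes. The nuclear receptor half-site AGGTCA was in 9 members, 29.0%, against 15.03% of tested genes and 18.1% of all genes. These 9 were Cd36, Cpt1a, Acadm, Acadvl, Echs1, Idh3g, Ogdh, Sucla2 and Fh1. Of them only Echs1 had groups apart, beside 26.5% of all tested members and 17.7% of all tested genes. Fabp5, whose groups were also apart, had no window, and a link between the half-site and the groups was not tested. The PPAR response element, read here as that half-site followed after any 1 base by the same half-site, was in 0 members and 0.0481% of all genes. A run of letters this rare would seldom fall in any of 31 windows, so that the 0 says little about the members. A match is a run of letters in the window and not a measured binding site.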

How the data were processed

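RNA of 6 libraries (3 WT, 3 KO) was measured in pools of sorted cells amplified before library preparation, per the labels' protocols. The authors deposited estimated counts per gene, whole numbers as they stand. Per the submitters' processing notes the tools were Salmon 1.4.0 and fastp 0.20.0, with DESeq2 1.34.0 in R 4.1.2. Neither genome build, annotation nor strand setting is given in the sources used here. The same deposited table holds, per the file headers, a mean signal per gene, log2 fold changes with their errors, a test statistic (a score) and p-values with adjusted p-values of the authors' own comparison, and these are quoted only as the authors' values. A further 6 normalized columns could not be matched to samples by name and were not used.

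The 71 rows that repeated a gene were summed into others, from 32161 rows to 32090 genes. Genes were kept by edgeR's filterByExpr (at least 10 counts, 15 in total), scaled by TMM and tested KO against WT with edgeR 4.0.16 (limma 3.58.1, R 4.3.3), using quasi-likelihood tests with Benjamini-Hochberg adjustment over all tested genes and a call at 0.05. The standard error is the size of the log2 fold change divided by the square root of F, and log2 CPM uses a prior count of 2. DESeq2 1.42.0 served as an alternative. The scripts were checked on simulated counts. Lengths are of the longest coding transcript in GENCODE M21, and promoters are RefSeq's, GRCm38.p6. Of the names on the further lists and marker lists, 3 were not found in the table. Total counts of 9680503 to 20654340 limit the precision of low genes, and a count of 0 allows up to 3 counts, by counting error only.

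Members and lists go by pathway and symbol and use no measured value, but they were chosen with earlier results of these data known. Full values are given for the 5 members with the smallest p in each direction and for named key enzymes, and for the 3 further genes with the smallest p in each list. Alternatives covered scaling, filter, test, batch, RNA integrity, a replicate block, KO2 and KO3 summed, and each library left out.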

Additional observations from a re-analysis of the deposited data

How the results depend on the processing

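Members called stayed at 0 in all 17 alternatives, and the member median log2 fold change ranged from -0.11 to 0.03. Over all genes, 9 were called without the filter, 255 by DESeq2, 1 after adjusting for RNA integrity and 1 with KO2 and KO3 summed, and leaving out 1 library gave 1 to 4 (1 without WT1, WT2, WT3 or KO3). DESeq2 called 1 further gene of the listed pathways, Acad8. Members without overlap numbered 9 to 15 with 1 library left out, when 20.3% to 34.0% of all genes had none. Of the 34 members, 19 kept their sign in every alternative that tested them. The cause of the changes below was not tested, and none of these members was called.

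Log2 fold changes of opposite sign were 0.027 for Hadha and 0.0075 for Mdh2 under upper-quartile scaling, and 0.0049 for Acadm, 0.031 for Hadha and 0.0096 for Mdh2 without the filter. With limma-voom they were 0.91 for Cd36, 0.16 for Acadm, 0.10 for Hadha, 0.038 for Hadhb, -0.086 for Etfdh, -0.033 for Idh3g, 0.061 for Ogdh, -0.13 for Dlst and 0.11 for Mdh2. With adjustment for RNA integrity they were 1.43 for Cd36, 0.053 for Acadm, 0.14 for Hadhb, -0.31 for Acaa2, 0.18 for Decr1, -0.017 for Etfb and -0.054 for Idh3g. With sort batch A as a term they were 0.23 for Cd36 and 0.053 for Acadm, and with KO2 and KO3 summed 0.10 for Idh3a. Cd36 and Decr1 could not be tested under the stricter filter. The authors' deposited table, which is not among the 17 alternatives, gave 4 of the 34 tested members the opposite sign. They were Acadm (0.35), Hadha (0.39), Etfb (-0.44) and Etfdh (-0.12).

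With 1 library left out, log2 fold changes ran from -0.45 to 0.43 for Acadm, -0.10 to 0.13 for Hadha, -0.58 to 1.44 for Cd36, -0.36 to 0.14 for Hadhb, -0.30 to 0.66 for Acaa2, -0.50 to 0.15 for Decr1, -0.0028 to 0.26 for Etfb, -0.14 to 0.19 for Etfdh, -0.10 to 0.30 for Idh3g, -0.52 to 0.031 for Cpt1a, -0.56 to 0.50 for Idh3a, -0.23 to 0.22 for Ogdh, -0.76 to 0.34 for Fh1, -0.29 to 0.32 for Mdh2 and -0.31 to 0.49 for Dlst. Differences between groups in partner ratios ran from -0.79 to 0.81 for Suclg1 minus Sucla2, -0.22 to 0.18 for Hadhb minus Hadha, -1.93 to 0.18 for Acadm minus Acadvl, -0.11 to 0.62 for Idh3g minus Idh3a and -0.32 to 0.52 for Dlst minus Ogdh. Il23r ran from -1.77 to -0.58 over all alternatives and was called in none.

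Whether the replicate numbers pair the samples could not be settled. WT1 and the library labelled KO1 share a number and a sort batch. Deviations from the group means correlated at 0.0093, 0.049 and 0.026 between same-numbered libraries, and WT1 correlated best with KO3. With 3 libraries per group the deviations of a gene sum to 0 within its group, and KO2 and KO3 were close to each other. These correlations therefore cannot exclude pairing. With the replicate block, 3 genes and 0 members were called, and Cd36, Acadm and Mdh2 were at 0.60, 0.17 and 0.043.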
